A study of Mus musculus with 12 samples.

Results

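Of the 55414 Ensembl genes counted in mouse liver, 10 are described here that belong to hepatic stellate cells and to the remodeling of the extracellular matrix: Timp1, Timp3, Col1a1, Col3a1, Des, Reln, Lrat, Hgf, Ccn1 and Ccn2. They were chosen by name, as the rows whose Ensembl identifiers carry these symbols in the GENCODE mouse annotation, and all 10 passed the filter on low counts that left 13857 genes for testing. Bulk RNAseq had been performed on livers of 12 female C57BL/6J mice, which were 8 to 12 weeks old and fell into 4 groups of 3. All mice received 2 injections, the first of 0.9% NaCl or of 300 mg/kg FeSO4, and the second, 6 h later, of PBS or of 10 mg/kg dexamethasone (DEX), a synthetic glucocorticoid (GC). The groups are called NaCl/PBS, NaCl/DEX, FeSO4/PBS and FeSO4/DEX, and livers were taken 2 h after the second injection, 8 h after the first. The FeSO4 dose served as a model of acute iron overload, and the DEX groups asked whether the liver still responds to a GC under that overload.

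Hepatic stellate cells lie between hepatocytes and the sinusoidal endothelium, store vitamin A as retinyl esters, and turn into matrix-producing myofibroblasts when the liver is injured. Lrat esterifies retinol for storage, Des and Reln encode desmin and the secreted glycoprotein reelin, and all 3 are used to mark these cells. Hgf is a mitogen for hepatocytes that is secreted by stellate and other non-parenchymal cells. Timp1 and Timp3 inhibit metalloproteinases, Col1a1 and Col3a1 encode chains of fibrillar collagens, and Ccn1 and Ccn2 are matricellular proteins whose genes respond quickly to the transcriptional regulators YAP/TAZ, SRF and AP-1. Because the libraries come from whole liver, a change in the number of cells of a type and a change in RNA per cell cannot be told apart.

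Between 16335651 and 23827340 reads per library were counted on genes. Normalized counts are reads scaled by the TMM factors of edgeR, and genes were compared with each other only as FPKM, which also divides by exon length. An LFC is a log2 fold change, a gene was called where its edgeR FDR did not exceed 0.05, and each confidence interval covers 95%. All 9 measured hepatocyte markers were expressed in every group, with a summed level of 2128900 to 3152510 normalized counts per library. Of the 10 stellate cell markers, which include Lrat, Reln and Des, none was at 0 in any group. The chosen genes had far fewer reads, between 35 and 1523 per library for 9 of them and between 1 and 37 for Timp1. On the opposite strand, Syn3 shares 1734 bp of exon with Timp3 and had at most 24 reads. Other counted genes that share exon sequence with the chosen ones had at most 11. Gm71046, Gm71486 and Gm31113, which overlap with Col3a1, Reln and Hgf, were not among the counted genes. Which strand setting was used for counting is not given in the sources used here, so antisense reads cannot be told apart.

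In the livers of NaCl/PBS mice, Lrat had the highest level per length with 5.13 ± 1.07 FPKM (SD, n = 3). Timp3 followed with 4.20 ± 0.153 FPKM and Ccn1 with 2.61 ± 0.298 FPKM (SD, n = 3), and the mice of these 3 genes did not overlap with those of the next gene in the order. Reln, Col3a1, Ccn2, Hgf, Des and Col1a1 came next, between 1.89 and 0.490 FPKM on average, and each neighboring pair among them overlapped between mice. Timp1 was lowest with 0.177 ± 0.147 FPKM (SD, n = 3). In FeSO4/PBS mice, Ccn1 headed the order with 8.24 ± 3.29 FPKM and Timp3 was next with 7.13 ± 1.01 FPKM (SD, n = 3), and the mice of these genes overlapped. Lrat stood at rank 4 there, with 2.06 ± 1.45 FPKM (SD, n = 3), and overlapped with its neighbors Reln and Hgf. Col1a1 was now last with 0.470 ± 0.140 FPKM and Timp1 was at rank 8 with 0.774 ± 0.172 FPKM (SD, n = 3).

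**Figure D1:**
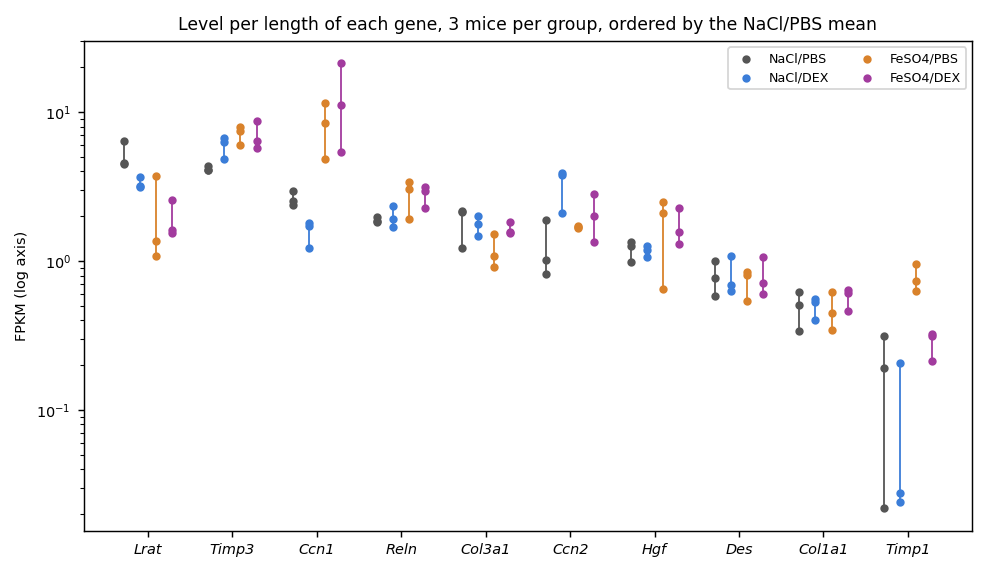
Level per length (FPKM, log axis) of each gene in each mouse, with points for mice, lines for the range of the 3 mice, and colors for the 4 groups. Lrat headed the order in NaCl/PBS mice at 4.46 to 6.37 FPKM, and Ccn1 in FeSO4/PBS mice at 4.88 to 11.4 FPKM.

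The FeSO4 effect without DEX was taken from FeSO4/PBS and NaCl/PBS mice. Ccn1, Timp1, Timp3 and Reln were upregulated, Lrat and Col3a1 were downregulated, and Col1a1, Des, Hgf and Ccn2 were not called. That is 6 of 10 genes, where 54.5% of all tested genes were called. Of the 10, 4 were higher and 2 lower, beside 27.2% and 27.3% of all tested genes. The share was therefore near that of the liver transcriptome as a whole. Over all tested genes the median LFC lay at -0.02, and scaling by library size alone moved it to -0.34 and the share of upregulated genes among all called from 49.9% to 28.2%. Of the 6 calls, that of Reln was lost under that scaling.

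Ccn1 (chromosome 3, 145352720 to 145355738, minus strand, GRCm39) had 101, 95.4 and 119 normalized counts in NaCl/PBS mice and 197, 461 and 338 in FeSO4/PBS mice. Every FeSO4/PBS mouse lay above every NaCl/PBS mouse, and the FeSO4/PBS mice differed more among themselves. The LFC was 1.66 ± 0.40 (SE), or 3.15-fold, with an edgeR FDR of 0.00304. Its relative Ccn2 (chromosome 10, 24471333 to 24474900, plus strand) had 51.8, 64.5 and 119 normalized counts in NaCl/PBS mice and 108, 105 and 107 in FeSO4/PBS mice. The groups overlapped through NaCl/PBS mouse 3, which was the highest of the 6. For Ccn2 the LFC of 0.45 had an interval from -0.26 to 1.16 and an edgeR FDR of 0.272. Without NaCl/PBS mouse 3 it was 0.88 with an edgeR FDR of 0.0436, so that this mouse decides the call.

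Among the inhibitors of metalloproteinases, Timp1 (chromosome X, 20736316 to 20740976, plus strand) had 12.2, 7.48 and 0.846 normalized counts in NaCl/PBS mice and 37.3, 28.5 and 24.2 in FeSO4/PBS mice. The groups did not overlap, but the NaCl/PBS values rest on 1 to 17 reads. The LFC was 2.09 ± 0.64 (SE), or 4.25-fold, with an edgeR FDR of 0.0131, and without NaCl/PBS mouse 1 the LFC of Timp1 was 2.85 and without mouse 3 it was 1.58, both called. Timp3 (chromosome 10, 86136236 to 86185371, plus strand), which binds to the matrix, was far more abundant, with 664, 706 and 663 normalized counts in NaCl/PBS mice and 967, 1274 and 1213 in FeSO4/PBS mice. All FeSO4/PBS mice were above all NaCl/PBS mice, which lay close together. The LFC of Timp3 was 0.76 ± 0.16 (SE), or 1.70-fold, with an edgeR FDR of 0.00132.

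Of the fibrillar collagens, Col3a1 (chromosome 1, 45350698 to 45395840, plus strand) had 439, 251 and 438 normalized counts in NaCl/PBS mice and 184, 311 and 221 in FeSO4/PBS mice. NaCl/PBS mouse 2 fell among the FeSO4/PBS mice, so that the groups overlapped. The LFC was -0.65 ± 0.22 (SE) with an edgeR FDR of 0.0234. The Col3a1 call was lost when FeSO4/PBS mouse 1 or 3 or NaCl/PBS mouse 1 or 3 was left out, with edgeR FDRs of 0.0888, 0.0711, 0.0972 and 0.0939. It was also lost when only these 6 libraries were fitted, at an edgeR FDR of 0.0607. Col1a1 (chromosome 11, 94827050 to 94843868, plus strand) had 66.2, 43.9 and 81.3 normalized counts in NaCl/PBS mice and 80.6, 58.0 and 44.6 in FeSO4/PBS mice. These mice were intermingled, and the LFC of -0.06 had an interval from -0.65 to 0.54 and an edgeR FDR of 0.876. That the Col3a1 and Col1a1 responses differed from each other was not tested.

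Among the stellate cell markers, Lrat (chromosome 3, 82799886 to 82811288, minus strand) had 676, 484 and 473 normalized counts in NaCl/PBS mice and 115, 395 and 145 in FeSO4/PBS mice. All FeSO4/PBS mice were lower than all NaCl/PBS mice, and mouse 2 stood well above the other two FeSO4/PBS mice. The LFC of Lrat was -1.31 ± 0.35 (SE) with an edgeR FDR of 0.00578, and without FeSO4/PBS mouse 2 it was -2.07 with an edgeR FDR of 1.71e-05. Reln (chromosome 5, 22089452 to 22549700, minus strand) moved the other way, with 870, 931 and 866 normalized counts in NaCl/PBS mice and 904, 1441 and 1588 in FeSO4/PBS mice. FeSO4/PBS mouse 1 lay within the NaCl/PBS range and the other two lay above it. The LFC of Reln was 0.56 ± 0.19 (SE), or 1.47-fold, with an edgeR FDR of 0.0216. This call was lost with scaling by library size alone, at an LFC of 0.25 and an edgeR FDR of 0.311, and without FeSO4/PBS mouse 2 or 3 or NaCl/PBS mouse 1 or 3, at edgeR FDRs of 0.0681, 0.105, 0.0596 and 0.0619. Des (chromosome 1, 75320511 to 75345223, plus strand) had 59.7, 78.5 and 102 normalized counts in NaCl/PBS mice and 82.7, 85.5 and 54.8 in FeSO4/PBS mice. The groups overlapped, and the LFC of -0.09 had an interval from -0.72 to 0.53 and an edgeR FDR of 0.805. The markers thus included 1 gene that fell, 1 that rose and 1 that was not called.

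Hgf (chromosome 5, 16758041 to 16828178, plus strand) had 209, 267 and 283 normalized counts in NaCl/PBS mice and 138, 446 and 525 in FeSO4/PBS mice. FeSO4/PBS mouse 1 was the lowest of the 6 and the other two were the highest. The LFC of 0.54 had an interval from -0.20 to 1.29 and an edgeR FDR of 0.200. With no filter on low counts, Hgf was called with all mice kept. Without FeSO4/PBS mouse 1 the LFC of Hgf was 0.95 with an edgeR FDR of 0.00156. Under the filter used here, the call thus depended on this mouse. The same mouse was also the lowest FeSO4/PBS mouse for Reln, Ccn1, Timp3, Col3a1 and Lrat, and for the summed stellate cell markers, with 5849 normalized counts beside 8044 and 8116 in the other two, a sum that includes Reln and Lrat. It was the highest of its group for Timp1, Col1a1 and Ccn2.

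**Figure D2:**
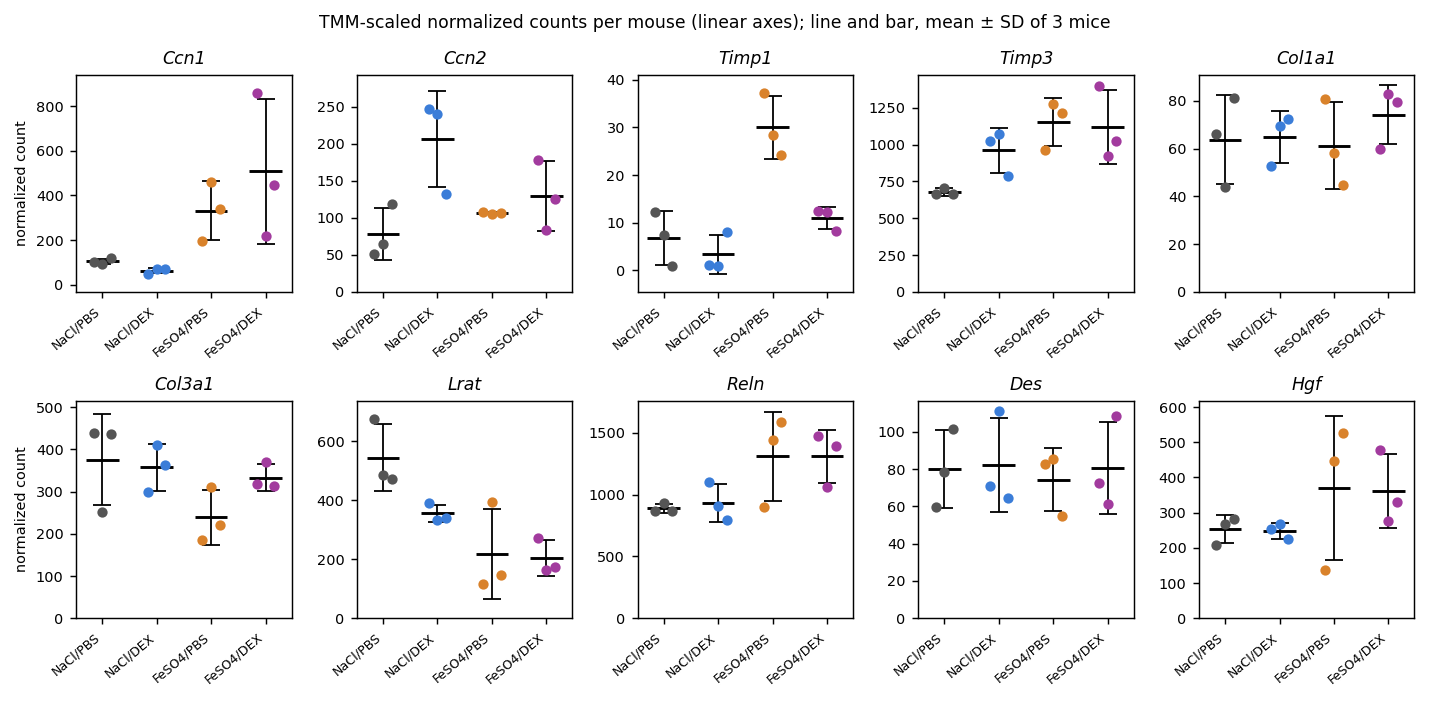
TMM-scaled normalized counts (linear axes) of the 10 genes in the 12 mice, with points for mice in the order of their replicate numbers and lines and bars for the mean ± SD of 3 mice. Ccn1 lay at 95.4 to 119 in NaCl/PBS mice and at 197 to 461 in FeSO4/PBS mice, Lrat was lower in all FeSO4/PBS mice, and FeSO4/PBS mouse 1 stood low for Hgf at 138.

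Promoters are shown for the 3 genes called with an LFC beyond 1 in size, Ccn1 and Timp1 as higher, like 12.5% of all tested genes, and Lrat as lower, like 14.7%. The sequences run 5′ to 3′ on the strand of the gene and end at the RefSeq start site for Ccn1 and where the annotated gene begins for Timp1 and Lrat. They come from RefSeq promoter windows of 250 bases before and 50 after the start, which were tabulated on GRCm38.p6 and located on GRCm39 by an exact and unique match of the upstream bases. Capitals mark the TEAD element GGAATG, the TATA box TATAAA or the GC response half-site AGAACA, each on either strand. The regions are chr3:145355741-145355990 (minus strand) for Ccn1, chrX:20736155-20736315 (plus strand) for Timp1 and chr3:82811289-82811531 (minus strand) for Lrat.
Ccn1: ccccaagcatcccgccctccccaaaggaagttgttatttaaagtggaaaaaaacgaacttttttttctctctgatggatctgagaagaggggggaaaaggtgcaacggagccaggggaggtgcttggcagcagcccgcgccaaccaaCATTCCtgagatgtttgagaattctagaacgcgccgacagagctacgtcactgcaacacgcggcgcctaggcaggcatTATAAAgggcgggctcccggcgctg
Timp1: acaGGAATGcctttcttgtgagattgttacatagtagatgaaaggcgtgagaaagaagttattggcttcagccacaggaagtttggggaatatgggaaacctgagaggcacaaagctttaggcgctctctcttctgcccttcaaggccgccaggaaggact
Lrat: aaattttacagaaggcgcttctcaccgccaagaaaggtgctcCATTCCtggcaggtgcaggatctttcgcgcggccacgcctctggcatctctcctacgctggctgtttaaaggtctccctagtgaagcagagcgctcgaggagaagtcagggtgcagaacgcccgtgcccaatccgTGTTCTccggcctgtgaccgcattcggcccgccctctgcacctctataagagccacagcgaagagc
Positions are counted from the RefSeq start. The Ccn1 promoter held a TEAD element on the opposite strand at -103 to -98 and a TATA box at -25 to -20. The Timp1 promoter held a TEAD element at -247 to -242. In the Lrat promoter, a TEAD element lay at -208 to -203 and a GC response half-site at -73 to -68, both on the opposite strand. Of the 10 genes, 8 had a window, Col1a1 and Ccn2 being without one, and Hgf had 2 start sites, which makes 9 windows. TEAD elements were found in 4 of these 9 windows, in those above and in that of Col3a1, and in 14.7% of the 32851 windows of all genes. The GC response half-site was found in 2 of 9 windows, those of Lrat and Hgf, and in 19% of all windows. The TATA box was found in 2 of 9, those of Ccn1 and Col3a1, and in 13.6% of all. Neither the AP-1 site TGANTCA nor the CArG box of SRF was found in the 9 windows, where 7.81% and 1.63% of all windows held them. A match describes letters in this window and does not show that a factor binds.

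The DEX effect without FeSO4 was taken from NaCl/DEX and NaCl/PBS mice. Ccn2 was upregulated and none of the other genes was called. This is 1 of 10 genes, where 13.7% of all tested genes were called, 6.5% as higher and 7.15% as lower. Scaling by library size alone moved the higher share of all called genes from 47.6% to 25.8%. Ccn2 had 247, 240 and 132 normalized counts in NaCl/DEX mice, beside 51.8, 64.5 and 119 in NaCl/PBS mice. All NaCl/DEX mice lay above all NaCl/PBS mice, though NaCl/DEX mouse 3 was close to NaCl/PBS mouse 3. The LFC of Ccn2 was 1.40 ± 0.32 (SE), or 2.64-fold, with an edgeR FDR of 0.0103, and without NaCl/PBS mouse 1 it was 1.18 with an edgeR FDR of 0.0536.

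Ccn1 had 49.4, 69.6 and 72.5 normalized counts in NaCl/DEX mice, all lower than the 95.4 to 119 of NaCl/PBS mice. The LFC of Ccn1 was -0.72 with an interval from -1.64 to 0.21 and an edgeR FDR of 0.324, and a fit of these 6 libraries alone gave -0.70 with an edgeR FDR of 0.0375. Lrat had 390, 335 and 341 normalized counts in NaCl/DEX mice, which were also below all NaCl/PBS mice. Its LFC was -0.62 with an interval from -1.35 to 0.11 and an edgeR FDR of 0.272, and the fit of the 6 libraries gave -0.60 with an edgeR FDR of 0.0165. Timp3 had 1022, 1074 and 784 normalized counts, above all NaCl/PBS mice. The LFC of Timp3 was 0.50 with an interval from 0.15 to 0.85 and an edgeR FDR of 0.0569, while DESeq2 gave an adjusted p of 0.0276. These 3 genes were thus called or not depending on the model, with the same direction in each.

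The DEX effect after FeSO4 was taken from FeSO4/DEX and FeSO4/PBS mice. None of the 10 genes was called with edgeR or with DESeq2, and 0 of all tested genes, or 0%, were called with edgeR and 10 with DESeq2. At an unadjusted p under 0.05 edgeR found 6.49% of all tested genes and 1 of the 10, Timp1. Timp1 had 12.6, 12.2 and 8.32 normalized counts in FeSO4/DEX mice, all lower than the 24.2 to 37.3 in FeSO4/PBS mice. The LFC of Timp1 was -1.43 with an interval from -2.79 to -0.08 and an edgeR FDR of 0.762, on 7 to 13 reads in FeSO4/DEX mice. Ccn1 had 860, 219 and 447 normalized counts in FeSO4/DEX mice, which overlapped with FeSO4/PBS mice. The LFC of Ccn1 was 0.63 with an interval from -0.18 to 1.43 and an edgeR FDR of 0.799. Ccn2, the gene that responded to DEX in NaCl mice, had 178, 84.3 and 126 normalized counts in FeSO4/DEX mice and 105 to 108 in FeSO4/PBS mice. The LFC of Ccn2 was 0.29 with a wide interval from -0.41 to 1.00 and an edgeR FDR of 0.895.

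The difference between both DEX effects was then tested as an interaction term. None of the 10 genes was called, where 6.18% of all tested genes were called, 48.3% of them as higher and 63.7% with scaling by library size alone. For Ccn2 the DEX effect after FeSO4 minus that without FeSO4 was -1.11 on the log2 scale, with an interval from -2.10 to -0.12 and an edgeR FDR of 0.189. Ccn1 had a difference of 1.34 with an interval from 0.11 to 2.57 and an edgeR FDR of 0.203. For Timp3 the difference was -0.54 with an interval from -1.04 to -0.05 and an edgeR FDR of 0.198. These 3 of 10 genes had an unadjusted p under 0.05, as did 20.4% of all tested genes. The Lrat difference was 0.52 with an interval from -0.55 to 1.58 and an edgeR FDR of 0.605, and without FeSO4/PBS mouse 2 it was 1.27 with an edgeR FDR of 0.0293. That the DEX response of Ccn2 was smaller after FeSO4 thus did not pass the test with 3 mice per group.

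The FeSO4 effect with DEX was taken from FeSO4/DEX and NaCl/DEX mice, which share no library with the FeSO4 effect without DEX. Ccn1 was called, which is 1 of 10 genes where 43.3% of all tested genes were called, 22.4% as higher and 20.9% as lower. With library size alone, the higher share of all called genes went from 51.7% to 34.2%. The LFC of Ccn1 was 3.00 ± 0.43 (SE), or 7.99-fold, with an edgeR FDR of 7.57e-05, and every FeSO4/DEX mouse was at least at 219 normalized counts while no NaCl/DEX mouse exceeded 72.5. Without FeSO4/DEX mouse 1, the highest, the LFC of Ccn1 was 2.38 and still called. Ccn2 had an LFC of -0.66 with an interval from -1.34 to 0.02 and an edgeR FDR of 0.110. Reln had 1472, 1066 and 1394 normalized counts in FeSO4/DEX mice beside 1102, 907 and 797 in NaCl/DEX mice. FeSO4/DEX mouse 2 lay within the NaCl/DEX range and the other two above it. The LFC of Reln was 0.49 with an interval from 0.08 to 0.89 and an edgeR FDR of 0.0500438, just above the threshold, and DESeq2 called it. Lrat had 274, 163 and 172 normalized counts in FeSO4/DEX mice, all lower than the 335 to 390 in NaCl/DEX mice, and an LFC of -0.80 with an edgeR FDR of 0.0837. DESeq2 and scaling by library size alone called Lrat. Timp1 had an LFC of 1.69 with an interval from -0.02 to 3.40 and an edgeR FDR of 0.102, on 1 to 8 reads in NaCl/DEX mice. Without NaCl/DEX mouse 3 it was 3.31 with an edgeR FDR of 0.0194. Timp3 and Col3a1, also called without DEX, had LFCs of 0.22 (edgeR FDR 0.295) and -0.10 (edgeR FDR 0.737) with DEX. Hgf had 479, 277 and 331 normalized counts in FeSO4/DEX mice, all above the 225 to 268 in NaCl/DEX mice. The LFC of Hgf was 0.55 with an interval from -0.20 to 1.30 and an edgeR FDR of 0.219. Hgf was called with no filter on low counts and when only these groups were fitted. Whether the FeSO4 effect differed with DEX is the same interaction term as above, in which none of the 10 genes was called.

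**Figure D3:**
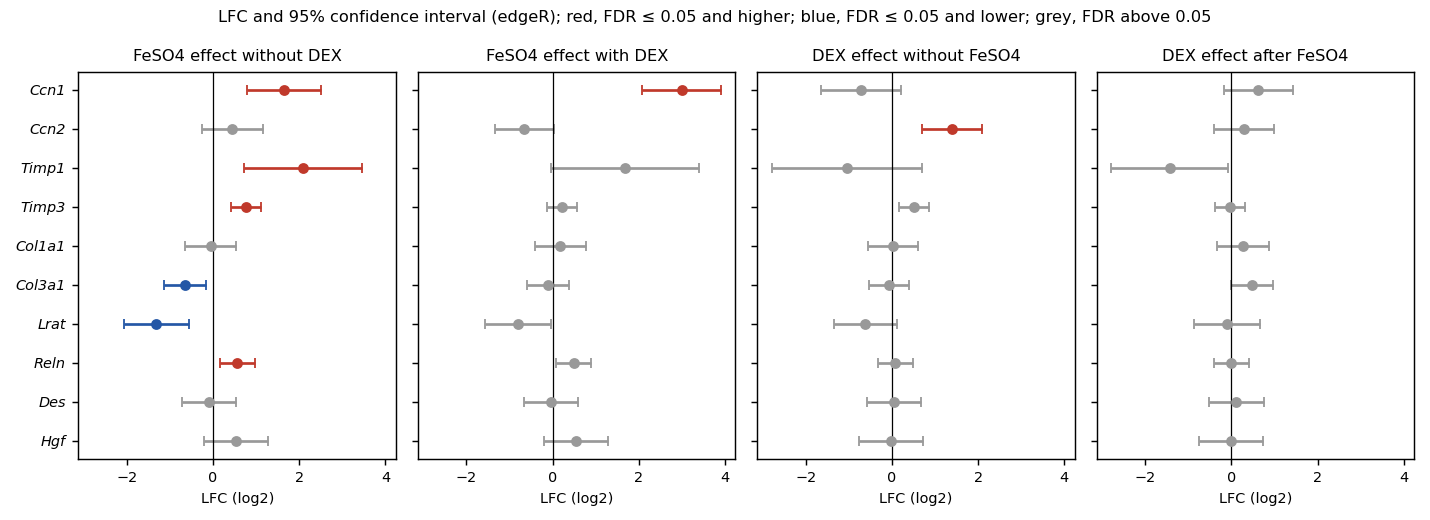
LFC on the log2 scale (points) with 95% confidence intervals (bars) of the 10 genes in 4 comparisons, which pairwise share the mice of a group except for the 2 FeSO4 effects and the 2 DEX effects. With FeSO4, Ccn1 lay at 1.66 without and 3.00 with DEX, and Ccn2 was called only for DEX without FeSO4 at 1.40, a difference between the DEX effects that was itself not called.

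Markers of other cells moved with FeSO4, and their part in the results above was not tested. In FeSO4/PBS mice the summed stellate cell markers were at 5849 to 8116 normalized counts, beside 5708 to 5788 in NaCl/PBS mice, and 2 of 10 were called as higher and 1 as lower. Of these markers, Dcn had the highest means, 2328 in NaCl/PBS and 3523 in FeSO4/PBS mice, while Lrat fell. Summed neutrophil markers were at 133 to 322 in NaCl/PBS mice and 807 to 965 in FeSO4/PBS mice, with 5 of 7 tested called as higher. Kupffer cell markers were at 10656 to 11998 and 6249 to 7133 in the same order, with 9 of 10 called as lower. Sinusoidal endothelial markers were at 8032 to 9054 and 6045 to 7693, with 5 of 10 called as lower and 1 as higher. The higher one was Lyve1, with means of 252 and 1785, which makes the fall of the sum smaller. Smooth muscle and portal fibroblast markers were at 243 to 265 in NaCl/PBS mice and 323 to 414 in FeSO4/PBS mice, with 1 of 6 called as higher. Mesothelial markers were at 56.1 to 120 and 25.2 to 45.9, with 1 of 4 called as lower and Wt1 and Muc16 at 0 in all FeSO4/PBS mice. Wt1 and Muc16 had means of only 3.44 and 1.48 normalized counts in NaCl/PBS mice and did not pass the filter on low counts. Cholangiocyte markers were at 537 to 693 and 1084 to 1387, with 2 of 5 called as higher. These were Sox9, with means of 43.2 and 412, and Spp1, with 517 and 722, while Krt7 and Krt19 had LFCs of -0.85 and -0.18 and were not called. Of the hepatocyte markers, 4 of 9 were called as higher. Over all tested genes the shares were 27.2% higher and 27.3% lower. All these sums used TMM. With library size alone, group means of the 10 genes were 1.143 to 1.145 times those with TMM in NaCl/PBS mice. In FeSO4/PBS mice the ratio was 0.912 to 0.927. That scaling makes rises in these sums smaller and falls larger, and brings the stellate cell sums of both groups closer together.

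Other genes of the same pathways were taken from 10 lists that leave the 10 genes out. For the FeSO4 effect without DEX, 27.2% of all tested genes were called as higher and 27.3% as lower. The counts of each list below stand beside these shares, and no list was tested as a set. Of 19 quiescent stellate cell genes, 6 were called as higher and none as lower, with a median LFC of 0.19. With scaling by library size alone the median turned to -0.13 and 4 were higher and 2 lower. The 6 with TMM included Dcn, the proteoglycan decorin (LFC 0.60), Ecm1 (0.76) and Adamtsl2 (0.95). Dcn, Ngfr, Pdgfrb, Rgs5, Cygb, Colec11 and Hand2 of this list are also among the stellate cell markers counted above, so that both counts share these genes. Of 20 genes of activated stellate cells and myofibroblasts, 5 were higher and 1 lower, with a median LFC of 0.38. With scaling by library size alone these were 3 and 1, with a median of 0.07. Thbs1, the matricellular thrombospondin, rose with an LFC of 4.36, and the actin-binding Tagln (1.20) and the collagen-binding Sparc (0.61) rose less. The gene called as lower was Vim (-0.40). The other 14 were not called, among them Acta2 (0.40, edgeR FDR 0.398), Postn (0.28, 0.345) and Mgp (-0.42, 0.388). Acta2 and Tagln are also smooth muscle and portal fibroblast markers of the lists above. Among 18 collagens and collagen-processing genes, 3 were higher and 3 lower. Col4a1 and Col4a2, chains of basement membrane collagen, rose with LFCs of 2.54 and 1.61, and P4ha1, a subunit of the prolyl hydroxylase, fell with an LFC of -1.31. The median LFC of this list changed sign too, from 0.07 to -0.25, with scaling by library size alone, where 2 were higher and 7 lower.

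Of 20 metalloproteinases, inhibitors and genes of the plasminogen system, 11 were higher and 4 lower, with a median LFC of 0.57. With scaling by library size alone these were 8 and 5, with a median of 0.26. The proteoglycan-cleaving Adamts1 and Adamts15 rose with LFCs of 3.55 and 3.61, and Plaur, the urokinase receptor, with 3.97. Mmp8 and Mmp9 of this list are also neutrophil markers. All 16 tested SRF and AP-1 immediate-early genes were higher, with a median LFC of 2.58, and 15 of 16 with scaling by library size alone. They included the AP-1 subunit Jund (2.85) and the zinc finger factor Klf6 (3.75). Fosl1, another AP-1 subunit, went from a mean of 0.312 normalized counts to 264. Of 15 genes of the CCN family, YAP/TAZ and TEAD factors and their targets, 3 were higher and 5 lower. With scaling by library size alone 2 were higher and 5 lower. The 3 higher with TMM were Tead1 and Yap1 (0.41), which are factors and not targets, and Ptpn14 (1.02). The DNA-binding factor Tead1 rose with an LFC of 3.42, while the receptor kinase Axl (-1.29) and the LIM protein Ajuba (-2.17) fell.

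Of 18 genes of TGF-beta signalling, 6 were higher and 4 lower, with the receptor Tgfbr2 (LFC 1.90) and the repressors Tgif1 (1.78) and Skil (1.40) among the higher ones. Of 11 genes of HGF activation and its receptor, 2 were higher and 4 lower, and 2 and 6 with scaling by library size alone. Met, the HGF receptor, had an LFC of -0.90, and the proteases F11 (-0.98) and Klkb1 (-0.67) fell as well. Of 15 genes of retinoid handling, 6 were higher and 3 lower, with the retinol-binding protein receptor Stra6l (1.26) and the lipase Pnpla2 (2.41) higher and the retinal reductase Dhrs3 (-1.46) lower. With scaling by library size alone these counts were 3 higher and 6 lower, and those of TGF-beta signalling were 5 and 6. Of 3 tested Reelin receptor and adaptor genes, 2 were higher, among them Dab2 (0.74), and the receptor Vldlr had an LFC of 0.52 with an edgeR FDR of 0.346.

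**Figure D4:**
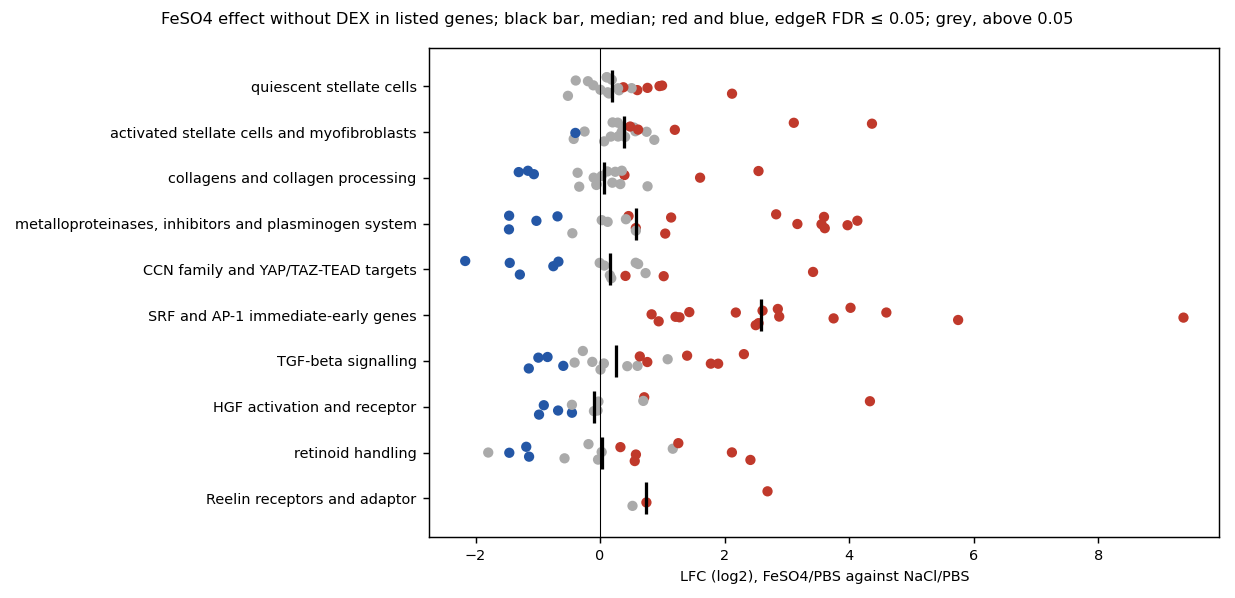
LFC on the log2 scale of the FeSO4 effect without DEX for each tested gene of the 10 lists, with bars for list medians and colors for called genes. All 16 immediate-early genes were called as higher, while the collagen list held 3 higher and 3 lower genes (2 and 7 with scaling by library size alone). Of all tested genes, 27.2% were higher and 27.3% lower.

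The difference between the DEX effects was called for 12 of the 155 tested genes of these lists, or 7.74%, beside 6.18% of all tested genes, so that the share was near the background. Of 44 tested genes in the marker lists alone, Lyve1, Kdr and Cyp3a11 were called. Among the 12, the difference was 3.13 (log2) for Junb, 1.93 for the tissue factor gene F3, 1.66 for the retinoic acid receptor Rara, 1.38 for Smad6, 1.11 for Dhrs3, 1.03 for Dab2 and 0.78 for Mmp15. It was -2.27 for Adamts15, -0.94 for Skil, -0.78 for Pnpla2 and -0.68 for Actb. For the positive differences, the DEX LFC without FeSO4 ran from -3.31 for Junb to -0.35 for Mmp15, with Smad6 and Mmp15 not called. After FeSO4 it ran from -0.17 for Junb to 0.61 for Dhrs3. For the negative differences named, it ran from 0.73 for Actb to 2.48 for Adamts15 without FeSO4. After FeSO4 these LFCs ran from -0.04 for Pnpla2 to 0.52 for Skil. No DEX effect after FeSO4 was called. The TMM values gave 7 higher and 5 lower genes with Serpina5, and scaling by library size alone gave 10 higher and 2 lower. Under that scaling Skil, Pnpla2 and Actb were no longer called, at edgeR FDRs of 0.0898, 0.0591 and 0.119, and with the size factors of DESeq2 Smad6 was not, at 0.0545. Serpina5, a serine protease inhibitor, had a mean of 0.312 normalized counts in NaCl/PBS mice, 34.0 in NaCl/DEX mice, 7.95 in FeSO4/PBS mice and 7.0 in FeSO4/DEX mice. Junb, another AP-1 subunit, fell with DEX in NaCl mice, with means of 1227 and 123 normalized counts, and had means of 5548 and 4921 in FeSO4/PBS and FeSO4/DEX mice.

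The 3 genes most like each of the 10 over the 12 libraries are described by Pearson's r of log2 CPM, over libraries that share the 4 groups. They are the highest of 8957 or 8958 compared genes, a selection that by itself gives high values of r. No link between the genes was tested. Ccn1 was most like Stk17b (0.963), Ccrl2 (0.961) and Ptp4a2 (0.959), and Ccn2 like Smcr8 (0.874), Trp53bp2 (0.853) and Cyth3 (0.836). Timp1 was closest to Anxa7 (0.963), Slc35f5 (0.910) and Rnf113a2 (0.900), and Timp3 to Hspa5 (0.947), Rbsn (0.944) and Itprip (0.934), of which Hspa5 encodes a chaperone of the endoplasmic reticulum. For Reln they were Adgrf5 (0.947), Pdgfra (0.943) and Cramp1 (0.941), where Pdgfra is a receptor that stellate cells carry, and for Lrat Pold2 (0.948), Agrn (0.944) and Adgra3 (0.934), where Agrn encodes a matrix proteoglycan. Hgf was followed by Dennd5a (0.957), Atxn1l (0.954) and Arl5a (0.931). The collagen genes had looser companions, Nudt7 (0.882), Ndufaf1 (0.877) and Ly6e (0.835) for Col1a1 and Car2 (0.870), Abcb11 (0.865) and A1bg (0.855) for Col3a1. Des had the loosest, Plod1 (0.768), C8b (0.768) and Mup7 (0.762), where Plod1 encodes a lysyl hydroxylase of collagen.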

How the data were processed

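Per the study's methods, the authors made stranded mRNA libraries from whole liver and sequenced single-end reads. After FastQC, STAR 2.7.10b aligned these to mm39 and gave the number of reads per gene. The deposited values are raw counts for 55414 genes without normalization, and the labels give group and replicate number. The submitters' notes also name DESeq2.

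From these counts, all 12 libraries entered 1 model with a mean per group in edgeR 4.0.16 (R 4.3.3), with TMM factors, filterByExpr and the quasi-likelihood test at a prior count of 0.125. Adjusted p-values are Benjamini-Hochberg values over 13857 genes. The biological coefficient of variation was 0.169. Symbols and exon lengths came from GENCODE vM39 on GRCm39. Alternatives were DESeq2 1.42.0, other scalings and filters, a replicate block, the groups compared alone, an LFC beyond 1, and each mouse left out. Pairs of mice in a group differed by 18.3 to 89.5 in chi-square per gene, far above sampling noise, and each was 1 replicate. Precision is limited by 3 mice per group and, for Timp1, by its low counts. For the FeSO4 effect without DEX, the SE of the LFC among the 10 genes ran from 0.16 for Timp3 to 0.64 for Timp1. How small a change could be found for these genes was not tested.

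The 10 genes, the pathway and marker lists and the tests were chosen with earlier results of these data known. Besides the 10 genes, the text names from each list up to 3 genes with the smallest FDR for the FeSO4 effect without DEX and a mean of at least 50 normalized counts in the higher group, genes of the pathway lists called for the difference between the DEX effects, and the 3 genes with the highest correlation to each of the 10, among genes with a mean of at least 100. A few other genes of the lists are named to show what a count or a sum consists of. Figures were drawn with matplotlib 3.10.9.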

Additional observations from a re-analysis of the deposited data

How the results depend on the processing

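The FeSO4 effect without DEX was called for 6 of the 10 genes, for 5 to 7 under the other tests, scalings, filters and fits, and for 3 (Timp1, Lrat and Ccn1) where an LFC beyond 1 was required as well. Leaving out 1 mouse gave 4 to 6. The LFCs of Col1a1 and Des, neither of them called, changed sign without FeSO4/PBS mouse 3 and without NaCl/PBS mouse 3, within ranges of -0.31 to 0.15 and -0.27 to 0.11 over all mice left out. The DEX effect without FeSO4 was called for 1 gene, for 2 (Timp3 and Ccn2) with DESeq2 or its size factors, and for 4 (Timp3, Lrat, Ccn1 and Ccn2) with no filter on low counts or with only the 6 libraries compared. Leaving out 1 mouse gave 0 to 2, with 0 without NaCl/PBS mouse 1 and 2 without FeSO4/DEX mouse 1 or 2, FeSO4/PBS mouse 1 or NaCl/DEX mouse 3. The FeSO4 effect with DEX was called for 1 gene, for 2 with library size alone, 3 with DESeq2, 4 with only the 6 libraries compared and 5 with no filter, and Ccn1 was among them each time. Leaving out 1 mouse gave 1 to 4, the 4 without FeSO4/PBS mouse 1, 3 without FeSO4/DEX mouse 1 or NaCl/DEX mouse 3, and 2 without FeSO4/DEX mouse 2, FeSO4/PBS mouse 2 or 3 or NaCl/DEX mouse 1. With no filter, the DEX effect after FeSO4 was called for 1 gene (Ccn1) and the difference between the DEX effects for 2 (Ccn1 and Ccn2), where no other test, scaling or filter called any. Leaving out 1 mouse gave 0 to 1 for that difference, the 1 being Lrat without FeSO4/PBS mouse 2. The cause of these changes was not tested. With library size alone, 5 of 40 group means moved by more than 1 SD. Timp1 did not pass a filter of 10 counts in every library or the fits of NaCl/DEX libraries with 1 other group.

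With the replicate number as a block, 6, 1, 0, 1 and 0 genes were called in the 5 comparisons, the same counts as without it. Mice of different groups with the same number deviated together with correlations of -0.092 to 0.129, so that the numbers were not taken to pair the mice.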
